A study of Mus musculus with 9 samples.

Results

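The 10 genes described here carry out antigen presentation on major histocompatibility complex (MHC) class I molecules: B2m, H2-K1, H2-D1, Tap1, Tap2, Tapbp, Psmb8, Psmb9, Psmb10 and Nlrc5. They were chosen by name from the 55906 genes of the table, and all 10 passed the filter on low values that left 11260 genes for testing. The values are TPM, transcript levels corrected for length and for library total. Levels of different genes can thus be set side by side, except where reads of overlapping or closely similar genes may be misassigned. Each value is a share of its library's total, so comparisons between libraries also depend on the other genes. The cells were BV2, a mouse microglia line immortalized with a retrovirus and labelled wild type. The 9 libraries fell into 3 groups of 3: cells given lipopolysaccharide (LPS), a bacterial cell wall component, together with the treatment named Pilo (LPS+Pilo); cells given LPS alone (LPS); and untreated cells (Control). No group received Pilo without LPS. No source used here gives the doses, the durations or what Pilo stands for, and all groups come from 1 cell line kept in culture without the T cells that read class I molecules.

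Class I presentation shows pieces of a cell's own proteins to CD8 T cells. The proteasome cuts proteins into peptides, the TAP transporter moves these into the endoplasmic reticulum, and a loading complex fits them into a heavy chain paired with beta-2-microglobulin. Interferons and other inflammatory signals are known to raise many of these genes, and interferon gamma in particular adds 3 inducible catalytic subunits to the proteasome, which makes it an immunoproteasome. Microglia carry little class I in the resting brain and are known to raise it in inflammation.

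BV2 cells expressed every step of the pathway without stimulation, at levels that differed widely between steps. With LPS against Control, B2m rose 1.46-fold and the other 9 genes did not pass the test (adjusted p under 0.05 in limma, passed by 7.76% of all tested genes). With LPS+Pilo against Control, B2m rose 1.66-fold and H2-D1 1.30-fold (10.2% of all tested genes passed). Only the B2m call in LPS+Pilo against Control held whenever a single library was left out or the fit was changed. The B2m call in LPS and the H2-D1 call were each lost in some of those runs. With LPS+Pilo against LPS, none of the 10 passed (0.0444% of all tested genes did). Folds are ratios on the TPM + 1 scale. The peptide transporter and the inducible proteasome subunits did not pass in any comparison.

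Among the 10 genes, those that encode the class I molecule itself had the highest means. B2m, which encodes the light chain shared by all classical class I molecules, averaged 1139 TPM over the 9 libraries and ranked 155th among the 11260 tested genes. H2-D1 and H2-K1, which encode the classical heavy chains, averaged 517 and 302 TPM. The inducible catalytic subunit genes were spread over a wide range, with 264 TPM for Psmb10, 144 TPM for Psmb8 and 16.2 TPM for Psmb9. In the loading complex, Tapbp, which encodes the tapasin bridge between transporter and heavy chain, averaged 65.2 TPM. Tap1 and Tap2, the partners of a heterodimeric transporter, averaged 22.6 and 4.53 TPM, and Tap1 was 4.17 to 5.89 times as high as Tap2 in the 9 libraries. Nlrc5, which encodes the transactivator that drives class I genes, averaged 9.56 TPM. In this order, H2-K1 and Psmb10 were not apart (H2-K1 was above Psmb10 in 7 of 9 libraries), nor were the ranges of Tap1 and Psmb9 or of Psmb9 and Nlrc5. The ranges of all other neighbours in the order did not overlap over the 9 libraries.

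**Figure D1:**
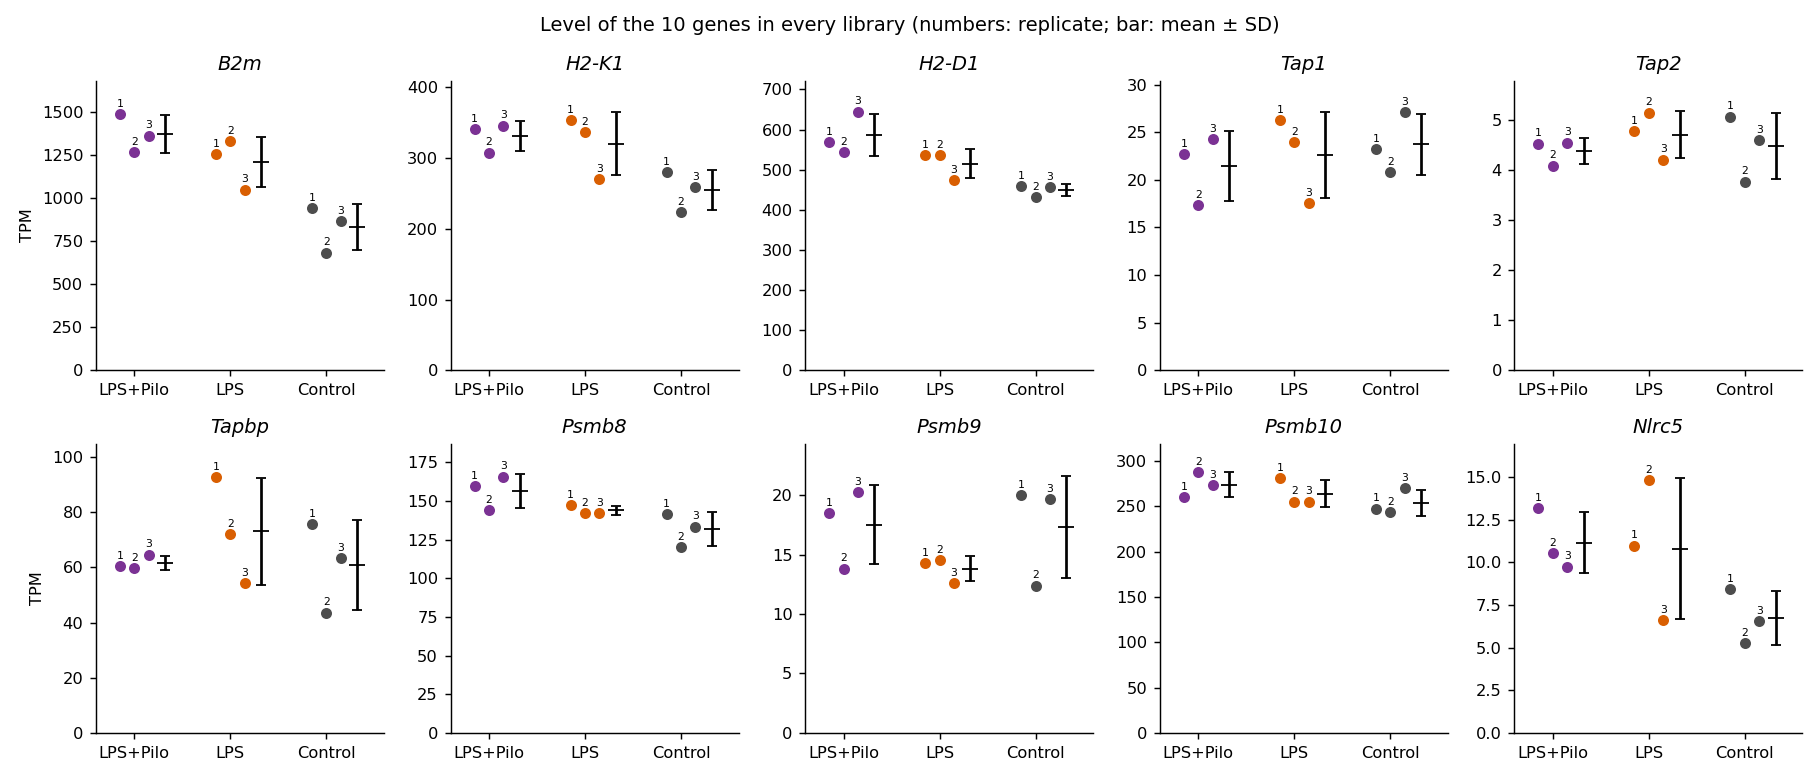
Level in TPM (vertical axes from 0, 1 panel per gene) of the 10 genes in the LPS+Pilo, LPS and Control libraries; points are libraries with their replicate number, and bars give the mean ± SD of 3 libraries. B2m sits at 1049 TPM or above in every treated library and at 944 TPM or below in every Control library, whereas Tap1, Tap2 and Psmb10 overlap between all groups.

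B2m was at 1488, 1269 and 1363 TPM in the LPS+Pilo libraries, at 1258, 1330 and 1049 TPM in the LPS libraries, and at 944, 684 and 866 TPM in the Control libraries. Every treated library lay above every Control library, while LPS+Pilo and LPS overlapped. The means were 1212 ± 146 TPM in LPS and 831 ± 133 TPM in Control (SD, n = 3 each), a difference of 0.55 ± 0.14 (SE) on the scale of log2(TPM + 1), which slightly understates changes of low genes (limma, Benjamini-Hochberg adjusted p = 0.0373). This call was lost without any 1 of 7 libraries: LPS+Pilo replicate 1 (adjusted p = 0.0522), 2 (0.0564) or 3 (0.0632), LPS replicate 1 (0.110) or 2 (0.140), and Control replicate 2 (0.104) or 3 (0.0932). It was also lost with no filter on low values (0.0940), with no variance trend (0.0625) and with only the 2 groups compared (0.0916). Over all alternatives the difference was 0.42 to 0.65 and the adjusted p 0.0142 to 0.140. Against Control, LPS+Pilo stood at 1373 ± 109.8 TPM, a difference of 0.73 ± 0.14 (limma, adjusted p = 0.00827), and this call held in every alternative run, with adjusted p from 0.00161 to 0.0371. LPS+Pilo minus LPS was 0.18 (95% confidence interval -0.12 to 0.49, limma adjusted p = 0.852).

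H2-D1 was at 568, 545 and 645 TPM in LPS+Pilo, at 537, 535 and 473 TPM in LPS, and at 459, 431 and 456 TPM in Control. The 3 groups did not overlap, with LPS+Pilo highest and Control lowest. The means were 586 ± 52.5, 515 ± 36.3 and 449 ± 15.2 TPM. LPS+Pilo minus Control was 0.38 ± 0.09 (limma, adjusted p = 0.0239). That call was lost without LPS+Pilo replicate 1 (0.0572) or 3 (0.0916), without Control replicate 2 (0.0781) or 3 (0.0730), and under quantile normalization (0.0694) or variances without a trend (0.0588), in a range of 0.0199 to 0.0916. LPS minus Control was 0.20 (95% confidence interval -0.00 to 0.39, limma adjusted p = 0.223), and LPS+Pilo minus LPS was 0.18 (-0.01 to 0.38, adjusted p = 0.763).

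H2-K1 was at 341, 308 and 346 TPM in LPS+Pilo, at 354, 337 and 270.3 TPM in LPS, and at 280.1, 224 and 259 TPM in Control. LPS replicate 3 fell among the Control values, whereas all LPS+Pilo libraries were above Control. Neither difference passed: LPS minus Control was 0.33 ± 0.12 (limma, adjusted p = 0.143) and LPS+Pilo minus Control was 0.39 ± 0.12 (adjusted p = 0.0793). Without LPS replicate 3 both passed (0.0395 and 0.0380), as did LPS+Pilo minus Control under median-ratio scaling (0.0192). H2-D1 was 1.52 to 1.93 times as high as H2-K1 across the libraries. The heavy chain genes are close paralogs, and how reads with several matches were assigned is not stated in the sources used here, so the split between them is uncertain. The ratio of B2m to summed H2-K1 and H2-D1, in TPM, was 1.38 to 1.64 in LPS+Pilo and 1.41 to 1.52 in LPS, against 1.04 to 1.28 in Control, so that all treated libraries were above Control.

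The heavy chain and B2m genes are known targets of NF-kB and interferon regulatory factors, so the promoter windows of these 3 genes are shown beside that of Tap1 and Psmb9. Of these 5 genes, H2-K1, Tap1 and Psmb9 did not pass in any comparison. Each window runs from 250 bases before to 50 bases after a RefSeq gene start on build GRCm38.p6, which is older than the GRCm39 build named for the TPM table. Windows were found for 8 of the 10 genes, and Tap2 and Nlrc5 had no entry. Capitals mark matches, on either strand, to 3 motifs. These are an NF-kB site (GGG, any 2 bases, TT, any base, CC), GAANNGAAA and TTCNNNGAA (a gamma-activated site, GAS). GAANNGAAA is called the ISRE core here, after the interferon-stimulated response element (ISRE). It misses other spellings of that element, so a window without this match may still hold an ISRE.
B2m (chr2:122147437-122147736, plus strand): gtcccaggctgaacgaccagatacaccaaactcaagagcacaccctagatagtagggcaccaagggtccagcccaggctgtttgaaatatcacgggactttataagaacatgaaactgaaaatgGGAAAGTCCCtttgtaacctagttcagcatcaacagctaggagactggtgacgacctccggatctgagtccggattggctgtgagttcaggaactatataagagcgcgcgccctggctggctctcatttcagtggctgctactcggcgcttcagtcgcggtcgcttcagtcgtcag
H2-K1 (chr17:34000298-34000597, minus strand): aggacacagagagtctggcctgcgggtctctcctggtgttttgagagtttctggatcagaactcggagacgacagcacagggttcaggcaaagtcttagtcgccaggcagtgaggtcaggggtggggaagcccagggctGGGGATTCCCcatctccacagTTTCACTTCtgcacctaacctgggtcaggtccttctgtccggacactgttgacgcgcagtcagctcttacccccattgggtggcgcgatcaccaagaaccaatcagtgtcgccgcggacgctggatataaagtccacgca
H2-D1 (chr17:35262844-35263143, plus strand): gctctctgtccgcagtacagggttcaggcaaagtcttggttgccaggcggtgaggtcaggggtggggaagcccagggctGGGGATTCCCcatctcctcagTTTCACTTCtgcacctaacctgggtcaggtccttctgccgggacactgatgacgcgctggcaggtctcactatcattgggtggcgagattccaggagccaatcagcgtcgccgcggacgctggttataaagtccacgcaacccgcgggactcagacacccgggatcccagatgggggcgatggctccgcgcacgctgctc
Tap1 (chr17:34187306-34187605, plus strand): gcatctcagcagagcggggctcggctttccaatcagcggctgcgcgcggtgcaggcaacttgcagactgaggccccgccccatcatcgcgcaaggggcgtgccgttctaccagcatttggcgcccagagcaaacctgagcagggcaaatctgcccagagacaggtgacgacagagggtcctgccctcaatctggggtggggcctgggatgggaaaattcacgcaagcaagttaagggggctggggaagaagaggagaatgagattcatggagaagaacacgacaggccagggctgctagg

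H2-K1 and H2-D1 carry the same NF-kB match, GGGGATTCCC, followed 21 bases further on by the ISRE core match TTTCACTTC, which reads GAANNGAAA on the other strand. The NF-kB match lies in a stretch of 47 bases that is identical in both genes, and the ISRE core match follows after that stretch. The first of the 2 RefSeq starts of H2-K1 puts the NF-kB match 111 bases before the start, and in H2-D1 it begins 171 bases before the start. The B2m window holds an NF-kB match, GGAAAGTCCC in the printed strand, 126 bases before the start. Shortly before that match it reads gaaactgaaa, an ISRE spelling that GAANNGAAA does not cover. The lack of an ISRE core match in B2m therefore does not show that an ISRE is absent. The Tap1 window shares 275 bases with that of Psmb9, which is transcribed the other way, and holds none of the 3 motifs. Among the other windows, Psmb8 held a GAS match, while Tapbp and Psmb10 held none of the 3. In all, 3 of the 8 genes with a window held the NF-kB motif, against 4.79% of 32851 RefSeq windows of the same length. A count of genes here stands beside a share of windows, and H2-K1, with 2 windows, counts once. The 8 genes are not separate cases, given the shared bases of Tap1 and Psmb9 and the likeness of H2-K1 and H2-D1. The pattern GAANNGAAA was held by 2, against 7.52%, and the GAS motif by 1, against 8.30%. ISREs of other spellings, as in B2m, were counted neither in the windows of the 8 genes nor in the background. These matches describe the letters of the windows and do not show binding.

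Nlrc5 was at 13.2, 10.5 and 9.74 TPM in LPS+Pilo, at 10.98, 14.8 and 6.59 TPM in LPS, and at 8.43, 5.24 and 6.53 TPM in Control. LPS replicate 3 fell among the Control values, and all LPS+Pilo libraries were above Control. It had the largest estimate of LPS minus Control among the 10 genes and the widest spread within groups, and it did not pass: LPS minus Control was 0.57 ± 0.26 (limma, adjusted p = 0.241) and LPS+Pilo minus Control 0.66 ± 0.26 (adjusted p = 0.160). LPS minus Control was 0.85 without LPS replicate 3 and then passed (adjusted p = 0.0416), and it was 0.32 without LPS replicate 2 (adjusted p = 0.598); LPS+Pilo minus Control passed under quantile normalization (0.0459). A lincRNA gene overlaps Nlrc5 on the opposite strand and reached at most 2.44 TPM; whether the counting used strand is not stated.

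The transporter and tapasin genes did not pass in any comparison. Tap1 was at 22.7, 17.4 and 24.3 TPM in LPS+Pilo, at 26.3, 23.96 and 17.6 TPM in LPS, and at 23.3, 20.8 and 27.1 TPM in Control, with full overlap of the groups. LPS minus Control was -0.08 (95% confidence interval -0.48 to 0.32, limma adjusted p = 0.829). Tap2 stayed between 3.77 and 5.15 TPM in all 9 libraries, and LPS minus Control was 0.06 (-0.26 to 0.38, limma adjusted p = 0.824). Tapbp was at 60.3, 59.8 and 64.6 TPM in LPS+Pilo, at 92.8, 71.9 and 54.3 TPM in LPS, and at 75.6, 43.6 and 63.4 TPM in Control. Its LPS and Control libraries were widely spread and overlapped, and LPS minus Control was 0.26 (-0.23 to 0.75, limma adjusted p = 0.514). Without single libraries it ran from 0.04 (without Control replicate 2) and 0.07 (without LPS replicate 1) to 0.43 (without Control replicate 1) and 0.45 (without LPS replicate 3). Reads of Zbtb22, which overlaps Tapbp on the same strand and reached at most 12.2 TPM, may count for either gene. The interval of LPS minus Control included 0 for all 3 loading genes and also held a change of 0.32 or more upwards.

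Among the inducible subunits, Psmb8 was at 160, 144 and 166 TPM in LPS+Pilo, at 147, 142.15 and 142.32 TPM in LPS, and at 141.77, 120.1 and 133 TPM in Control. All treated libraries were above all Control libraries, by a narrow margin in LPS. LPS+Pilo minus Control was 0.25 ± 0.09 (limma, adjusted p = 0.115) and LPS minus Control 0.13 ± 0.09 (adjusted p = 0.413). Psmb9 was at 18.5, 13.8 and 20.2 TPM in LPS+Pilo, at 14.3, 14.5 and 12.6 TPM in LPS, and at 20.0, 12.4 and 19.7 TPM in Control. The LPS libraries were close together and low, and each of the other groups held 1 library that low. LPS minus Control was -0.28 (95% confidence interval -0.73 to 0.16, limma adjusted p = 0.433), the lowest estimate of the 10 genes. Tap1 and Psmb9 overlap on opposite strands, so some of their reads may be counted for the wrong gene. Psmb10 was the steadiest of the 10, between 244 and 288 TPM, and its difference between LPS and Control was 0.06 (-0.12 to 0.23, limma adjusted p = 0.707).

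**Figure D2:**
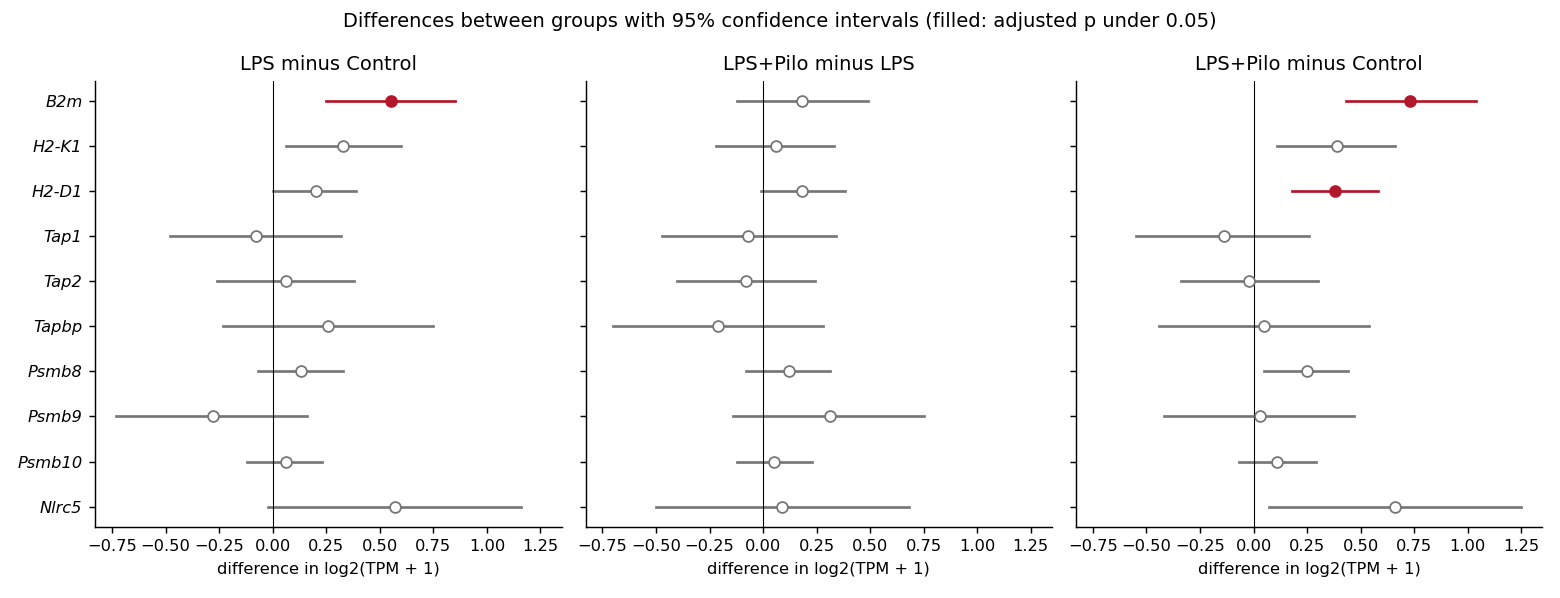
Difference in log2(TPM + 1) between groups (horizontal axes, first group minus second) for the 10 genes (vertical axis), with 95% confidence intervals from limma; filled points have an adjusted p under 0.05. B2m is filled in LPS minus Control (0.55), B2m (0.73) and H2-D1 (0.38) in LPS+Pilo minus Control, and none in LPS+Pilo minus LPS.

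Counted together, 1 of the 10 genes was higher in LPS than in Control and 0 were lower, where 4.12% of all tested genes were higher and 3.64% lower; a count of 1 is close to this background. The members' median was 0.16, against 0.07 over all genes. Replicates did not overlap, with LPS above Control, for 3 of the 10 (B2m, H2-D1 and Psmb8), against 11.2% of all genes. LPS+Pilo against Control had 2 of 10 higher and 0 lower (4.85% and 5.30% of all tested genes), with a median of 0.18 against 0.02 over all genes. Groups did not overlap, with LPS+Pilo above Control, for 5 of the 10 (B2m, H2-K1, H2-D1, Psmb8 and Nlrc5), against 14.9% of all genes. LPS+Pilo against LPS had 0 of 10 in either direction at an adjusted p under 0.05 in limma and 0 of 10 at an unadjusted p under 0.05, where 0.00888% of all genes were called higher, 0.0355% lower, and 6.76% had an unadjusted p under 0.05. Groups did not overlap, with LPS+Pilo above LPS, for 1 of the 10 (H2-D1), against 5.58% of all genes. The median was 0.08, against -0.05 over all genes. The comparisons with Control share the Control libraries, and each also shares its treated libraries with LPS+Pilo against LPS.

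The 10 genes also varied within groups, and often in the same library. Control replicate 2 was the lowest of all 9 libraries for 9 of the 10 genes, the exception being Tap1. Every gene was below its own mean in LPS replicate 3, and 9 of the 10 had their lowest LPS value there. In LPS+Pilo, replicate 2 was the lowest for 8 of the 10 genes. The factors that would bring all libraries to the same median level were lowest in those Control and LPS libraries, at 0.900 for Control replicate 2 and 0.914 for LPS replicate 3, against 0.966 to 1.11 in the other 7 libraries. The part of this shift in the results was not tested beyond the scaled fits: under median-ratio scaling B2m kept its calls against Control, and the call of H2-K1 in LPS+Pilo was gained. The labels name no batch.

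**Figure D3:**
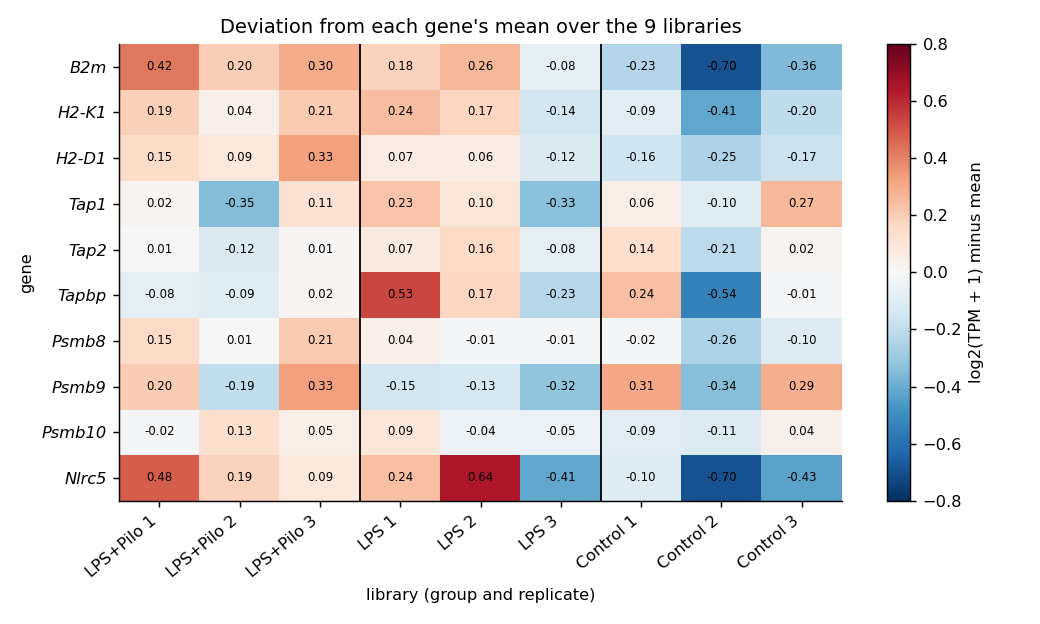
Deviation of each gene (rows) in each library (columns: LPS+Pilo, LPS and Control, replicates 1 to 3) from its own mean over the 9 libraries, in log2(TPM + 1), red above and blue below. The Control replicate 2 and LPS replicate 3 columns are blue for all 10 genes, and B2m is above its mean in all LPS+Pilo libraries and below it in all Control libraries.

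In an immunoproteasome, PSMB9 takes the place of PSMB6, PSMB10 that of PSMB7, and PSMB8 that of PSMB5, so each inducible gene was set against its constitutive counterpart. Psmb5 averaged 938 ± 42.2 TPM in LPS+Pilo, 873 ± 74.1 TPM in LPS and 770.4 ± 61.5 TPM in Control. Psmb6 averaged 1389.9 ± 88.9, 1345 ± 216 and 1302 ± 243 TPM in the same groups, and Psmb7 271 ± 32.9, 278 ± 46.8 and 253 ± 27.0 TPM. None of the 3 passed in any comparison (limma, adjusted p from 0.0848 to 0.984), although Psmb5 in LPS+Pilo against Control did under quantile normalization (0.0345) and with a replicate block (0.0461). The Psmb8 level was 0.149 to 0.203 of the Psmb5 level across the 9 libraries, that of Psmb9 was 0.00802 to 0.0196 of Psmb6, and that of Psmb10 was 0.795 to 1.23 of Psmb7. The 3 pairs thus stood at very different ratios, and only the Psmb10 and Psmb7 levels overlapped.

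No difference between groups was detectable in these ratios. Psmb8 per Psmb5 was 0.167 ± 0.0155 in LPS+Pilo, 0.166 ± 0.0165 in LPS and 0.172 ± 0.0275 in Control. Psmb9 per Psmb6 was 0.0126 ± 0.00237, 0.0105 ± 0.00228 and 0.0139 ± 0.00551, with Control replicate 1 the highest at 0.0196. Psmb10 per Psmb7 was 1.02 ± 0.169, 0.974 ± 0.229 and 1.01 ± 0.107. In 9 two-sided exact permutation tests of the log2 ratios (3 pairs, 3 comparisons) p ran from 0.400 to 1.00 and was 1.00 in each after Benjamini-Hochberg adjustment; with 3 libraries against 3 such a test cannot go below 0.10. The log2 differences ran from -0.35 (LPS minus Control) to 0.27 (LPS+Pilo minus LPS), both for Psmb9 per Psmb6. Without single libraries these ran from -0.67 (without Control replicate 2) to -0.07 (without Control replicate 1) and from 0.09 (without LPS replicate 3) to 0.43 (without LPS+Pilo replicate 2). The summed inducible genes made up 14.7% ± 0.217 of the 6 catalytic subunit genes in LPS+Pilo, 14.6% ± 2.16 in LPS and 14.9% ± 2.26 in Control.

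**Figure D4:**
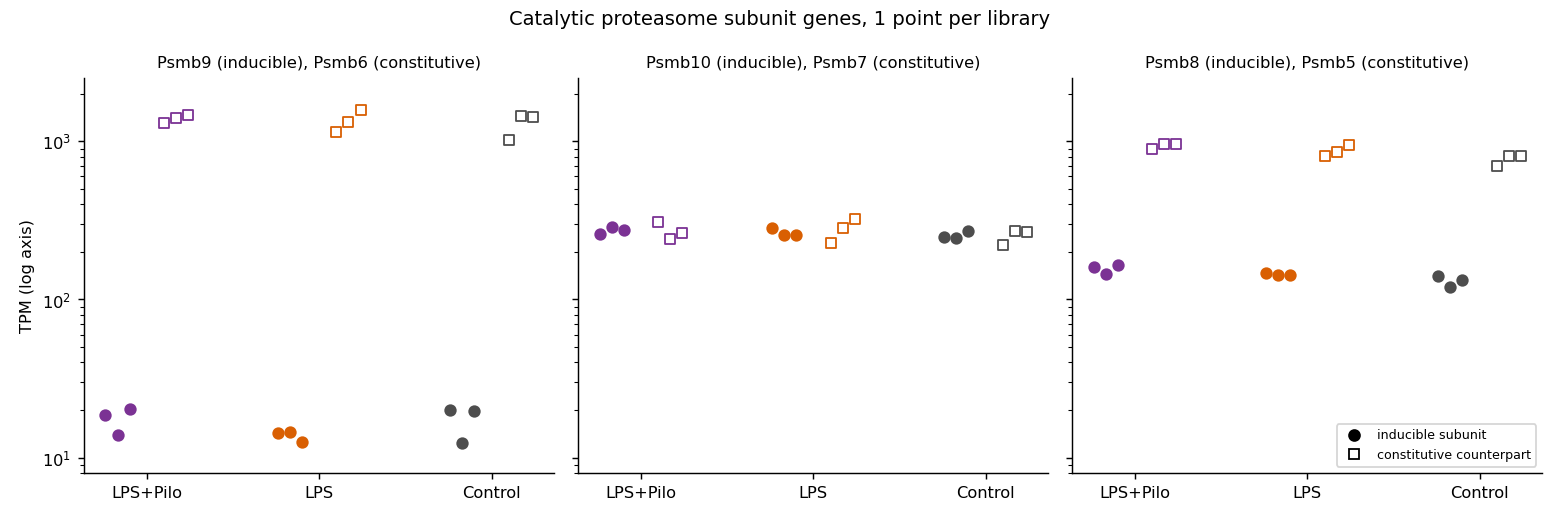
TPM on a log axis of the inducible catalytic subunit genes (filled circles) and their constitutive counterparts (open squares) in the LPS+Pilo, LPS and Control libraries, 1 point per library. Psmb9 lies far below Psmb6 (ratios of 0.00802 to 0.0196), Psmb8 below Psmb5 (0.149 to 0.203), and Psmb10 and Psmb7 overlap, with no shift between groups beyond the spread of the libraries.

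The rest of the pathway was described by gene lists. Of 14 other class I and class I-like genes 8 passed the filter; 1 was higher and 0 lower in LPS than in Control, 1 was higher and 0 lower in LPS+Pilo than in Control, and 0 passed in LPS+Pilo against LPS in either direction. In both comparisons with Control that gene was H2-T23, which encodes the heavy chain of Qa-1, a non-classical molecule that NK cells and CD8 T cells read. It was at 97.6, 99.7 and 104 TPM in LPS+Pilo, at 88.6, 79.6 and 71.3 TPM in LPS, and at 63.6, 49.7 and 61.6 TPM in Control. The 3 groups did not overlap and were in the same order as for H2-D1. LPS+Pilo minus Control was 0.78 ± 0.11 (limma, adjusted p = 0.00280; 7.16e-04 to 0.0166 over the alternatives) and LPS minus Control 0.45 ± 0.11 (adjusted p = 0.0434). The LPS call was lost without 7 of the 9 libraries (each one except LPS replicate 3 and Control replicate 1) with no filter (0.0792), no variance trend (0.0721), only the 2 groups compared (0.118) and the replicate block (0.0546), with adjusted p from 0.0225 to 0.138 over the alternatives. LPS+Pilo minus LPS was 0.33 (95% confidence interval 0.07 to 0.59, limma unadjusted p = 0.0174, adjusted p = 0.560). The 6 genes below the filter, H2-Q6, H2-Q7, H2-Q10, H2-T10, H2-M2 and Cd1d1, lay between 0 and 1.49 TPM.

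All 15 genes of peptide loading and trimming were measured, and 1 passed, in LPS+Pilo against Control. Calr, which encodes calreticulin, a chaperone of the loading complex and of many other glycoproteins, was at 491, 469 and 489 TPM in LPS+Pilo, at 666, 621 and 569 TPM in LPS, and at 790, 700.0 and 718 TPM in Control. The groups did not overlap, in the reverse order to that of H2-D1. LPS+Pilo minus Control was -0.60 ± 0.08 (limma, adjusted p = 0.00182; 0.00156 to 0.0115 over the alternatives), and LPS minus Control was -0.25 (adjusted p = 0.105), which passed under median-ratio scaling (-0.32, adjusted p = 0.0455). The list medians were -0.02 for LPS+Pilo minus Control, 0.17 for LPS minus Control and -0.17 for LPS+Pilo minus LPS.

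Of 12 genes for proteasome assembly, activators and constitutive counterparts 0 passed in any comparison in limma, with 1 at an unadjusted p under 0.05 in each comparison with Control and 0 in LPS+Pilo against LPS. Of all 11260 tested genes, 2560 reached that p in LPS against Control, 2698 in LPS+Pilo against Control and 761 in LPS+Pilo against LPS. Psme1 and Psme2 encode the PA28 activator, which interferon is known to induce. Psme1 averaged 166 ± 14.1, 158 ± 19.0 and 159 ± 21.9 TPM in LPS+Pilo, LPS and Control. Psme2 was at 142, 123 and 98.3 TPM in LPS+Pilo, at 144, 174 and 135 TPM in LPS, and at 132, 101 and 94.6 TPM in Control. The LPS libraries were above Control without overlap, and LPS minus Control was 0.47 ± 0.17 (limma, adjusted p = 0.133); it passed without Control replicate 1 (0.0457).

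Among 19 genes listed as regulators of class I transcription, all measured, 2 were higher and 0 lower in each comparison with Control. Of all tested genes, 4.12% were higher and 3.64% lower in LPS, and 4.85% and 5.30% in LPS+Pilo. In LPS+Pilo against LPS 0 of the 19 passed. Socs3 was 1 of the 2 called genes in both comparisons with Control. Socs3, which encodes a feedback inhibitor of cytokine receptors, rose to 26.5 ± 1.93 TPM in LPS+Pilo and 30.4 ± 6.52 TPM in LPS, against 7.41 ± 1.13 TPM in Control (1.72 ± 0.16, adjusted p = 1.88e-04, and 1.89 ± 0.16, adjusted p = 1.23e-04; limma). Nfkb1, which encodes an NF-kB subunit, rose in LPS (45.6 TPM, against 25.9 TPM in Control; 0.78 ± 0.18, limma adjusted p = 0.0305, 0.00448 to 0.120 over the alternatives). It missed the threshold without any 1 of 6 libraries, LPS+Pilo replicates 2 and 3, LPS replicates 1 and 2, and Control replicates 2 and 3, with no filter (0.0769) and with only the 2 groups compared (0.0861). In LPS+Pilo it stood at 39.9 TPM (LPS+Pilo minus Control 0.62 ± 0.18, limma adjusted p = 0.0659; 0.00860 to 0.198 over the alternatives). Irf7, an interferon regulatory factor gene, rose in LPS+Pilo (199 TPM, against 98.8 TPM in Control; 2.12-fold, limma adjusted p = 0.0392), a call lost without any 1 of 6 libraries, LPS+Pilo replicates 1, 2 and 3, LPS replicate 2, and Control replicates 2 and 3, with no filter (0.111) or with no variance trend (0.0545; 0.0154 to 0.115 over the alternatives). In LPS it stood at 191 TPM, 1.98-fold the Control level and above all Control libraries (adjusted p = 0.0683; 0.0292 to 0.192 over the alternatives), and LPS+Pilo minus LPS was 0.10 (limma, adjusted p = 0.978).

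Irf1, an activator of Tap1, Psmb9 and class I promoters, did not pass in any comparison. It was at 11.7, 8.35 and 9.97 TPM in LPS+Pilo, at 13.3, 13.4 and 10.1 TPM in LPS, and at 19.1, 12.3 and 18.7 TPM in Control. All LPS+Pilo libraries were below Control, and LPS+Pilo minus Control was -0.67 ± 0.20 (limma, adjusted p = 0.0621). That difference passed under both other scalings (0.0110 and 0.00835) and without LPS replicate 3 (0.0489) or Control replicate 2 (0.0217). LPS minus Control was -0.40 ± 0.20 (limma, adjusted p = 0.262) and passed under quantile normalization (-0.50, adjusted p = 0.0381). Ifng, the interferon gamma gene, was listed at 0 in all 9 libraries, and Ifnb1, the interferon beta gene, at 0 to 0.66 TPM. Of 9 interferon, receptor and JAK kinase genes 7 were tested and 0 passed in any comparison in limma. At an unadjusted p under 0.05, LPS against Control had 2 of the 7, LPS+Pilo against Control 2 and LPS+Pilo against LPS 0, where 2560, 2698 and 761 of the 11260 tested genes did.

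**Figure D5:**
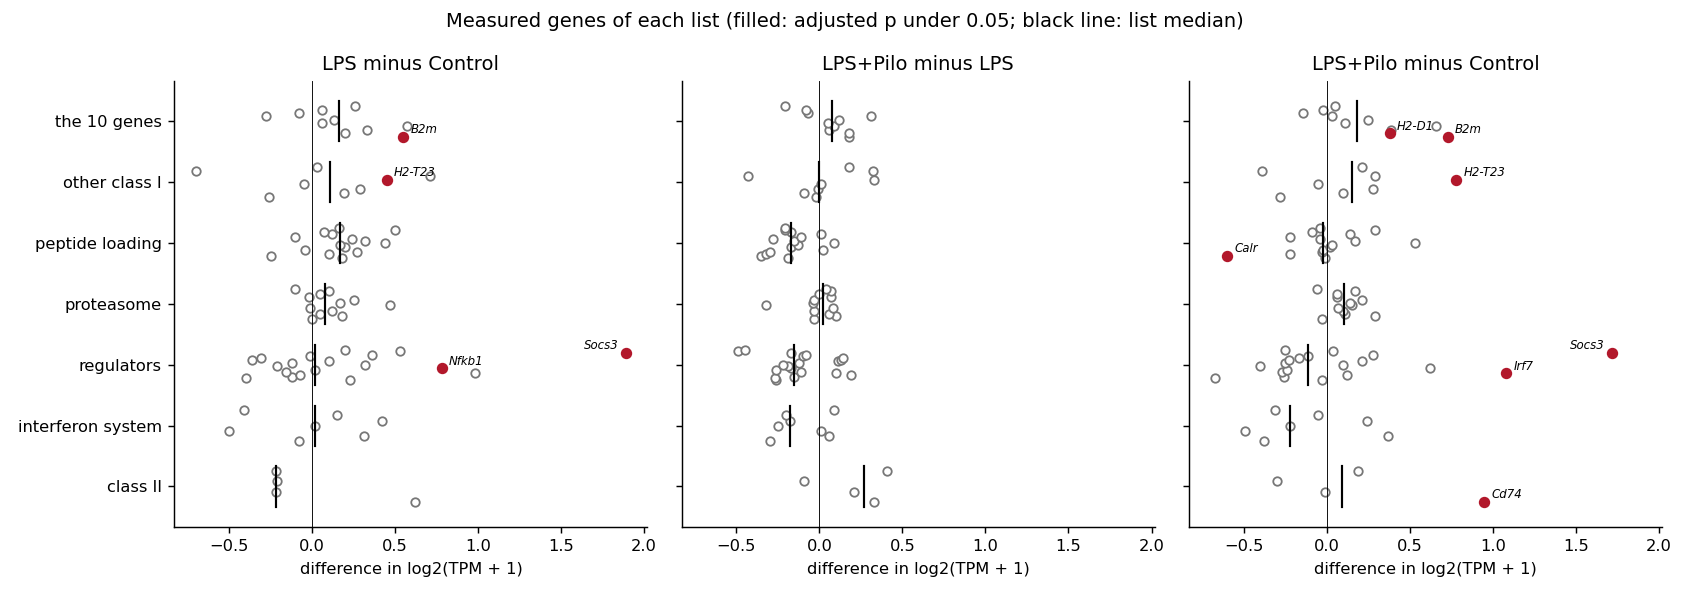
Difference in log2(TPM + 1) between groups (horizontal axes, first group minus second) for every measured gene of 7 lists, 1 row per list, with the list median as a black line and genes at an adjusted p under 0.05 filled and named. H2-T23 (0.78), B2m (0.73), H2-D1 (0.38), Socs3, Irf7 and Cd74 are filled on the right in LPS+Pilo minus Control, Calr (-0.60) is the filled point on the left, and the middle panel has none.

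Between 10726 and 11123 genes reached 1 TPM per library. Of 10 microglia and macrophage markers 9 passed the filter, P2ry12 being the exception, and their summed level was 1579 to 1712 TPM in LPS+Pilo, 1818 to 1854 TPM in LPS and 2174 to 2348 TPM in Control. The 9 did not move as one: against Control, 1 was higher and 2 were lower in LPS, and 1 was higher and 4 were lower in LPS+Pilo. The higher one was Itgam, which encodes the integrin CD11b, at 30.3 TPM in LPS+Pilo and 35.4 TPM in LPS, against 10.9 TPM in Control (limma, adjusted p = 0.00822 and 0.00608). The 45 markers of brain, vessel and blood cells other than these included 41 with a mean below 0.5 TPM, 20 of them at 0 throughout. Markers of B cells summed to at most 0.310 TPM and those of dendritic cells, which also present antigen, to at most 1.42 TPM in any library. The total over the 45 was 400.4 to 474 TPM in LPS+Pilo, 326 to 417 TPM in LPS and 179 to 377 TPM in Control. Nearly all of it came from the tubulin gene Tubb3. Syn1, also listed as a neuron marker, was the only one of the 45 called. It averaged 11.6 TPM in LPS+Pilo and 11.4 TPM in LPS, against 5.39 TPM in Control (limma, adjusted p = 0.00590 and 0.00929). The part of these shifts in the results was not tested. In RNA from whole cultures, fewer cells with a transcript and less of it per cell cannot be told apart.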

How the data were processed

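RNA was measured in 9 BV2 libraries, 3 each of LPS+Pilo, LPS and Control, named biological replicates by the labels without saying whether cultures were separate, so p-values cover only the spread among these libraries. The authors deposited TPM per gene, rounded to 2 decimals, in columns that sum to 999999 to 1000001, so a rise in abundant genes lowers the rest. The tools STAR 2.7.1a, fastp 0.19.5 and DESeq2 1.24.0 and the build GRCm39 are named per the submitters' processing notes. The program that gave TPM, the annotation and the strand setting were not given in the sources used here. Sequencing depth is unknown, so no counting error can be given.

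Symbols came from GENCODE M21 by Ensembl identifier (52081 matched). The 11260 genes that reached 1 TPM in 3 or more libraries were fitted as log2(TPM + 1) in limma 3.58.1 (R 4.3.3), all 9 libraries together, 1 mean per group, variances moderated with a trend, 6 residual degrees of freedom. Tests were two-sided with Benjamini-Hochberg adjustment over all genes tested, called under 0.05. The code was tested on simulated data. Subunit ratios used exact permutation tests (scipy 1.17.1). Promoter windows are RefSeq's (GRCm38.p6); protein sequences were not analysed here. The genes and lists were chosen with earlier results of these data known. Named genes were the 10 members, Psmb5, Psmb6, Psmb7, Psme1, Psme2, Irf1, up to 4 called genes per list and comparison, and the 3 genes closest in pattern to each called member; some results under this rule are not reported here. Genes named beyond the rule (P2ry12, Itgam, Tubb3, Syn1, Ifng, Ifnb1, Zbtb22 and those below the filter) were chosen after their values were seen.

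Alternatives were other pseudocounts (0.1, 0.5), no filter or 5 TPM, median-ratio scaling, quantile normalization, only the groups compared, a replicate block, no variance trend and leaving out each library.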

Additional observations from a re-analysis of the deposited data

How the results depend on the processing

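The count of the 10 genes called in LPS against Control was 0 with no filter on low values, with no variance trend and with only the 2 groups compared, and 0 to 3 without single libraries. For LPS+Pilo against Control it was 1 with no variance trend and 1 to 3 without single libraries, and for LPS+Pilo against LPS it was 0 under every alternative. Over all genes, LPS against Control gave 1516 under quantile normalization (614 higher and 902 lower, against 464 and 410 as reported), 483 with only the 2 groups, and 414 to 1020 without single libraries. LPS+Pilo against Control gave 1726 under quantile normalization and 642 to 1286 without single libraries. LPS+Pilo against LPS gave 5 as reported (1 higher), 1 with no filter (1 higher), 2 under median-ratio scaling (1 higher), 1 under quantile normalization (1 higher), 3 with no variance trend (1 higher) and 0 to 6 without single libraries. Deviations from group means correlated at -0.225 to 0.165 between libraries with the same replicate number, and at -0.37 to 0.30 between those with different numbers. With 3 libraries per group this cannot show whether the numbers mark shared handling. With the replicate number as a block, LPS+Pilo against LPS gave 1 (0 higher) and LPS against Control 808. The counts for the 10 genes were the same. The block lost the call of H2-T23 (LPS, limma adjusted p = 0.0546). It brought calls of Cd74 (LPS, 0.0492), Psmb5 (LPS+Pilo against Control, 0.0461) and Nfkb1 (LPS+Pilo against Control, 0.0324). Some small differences changed sign. In LPS against Control these were Tap2 under quantile normalization (-0.04) and Psmb10 and Psmb6 under median-ratio scaling (-0.01 each). In LPS+Pilo against LPS it was Psmb7 under median-ratio scaling (0.02), and in LPS+Pilo against Control Psmb9 (-0.00) under quantile normalization. Without single libraries, LPS minus Control ran from -0.19 to 0.09 for Tap1, -0.03 to 0.14 for Tap2, -0.11 to 0.16 for Psmb6 and -0.10 to 0.10 for Psme1. LPS+Pilo minus LPS ran from -0.06 to 0.13 for H2-K1, -0.23 to 0.07 for Tap1, -0.19 to 0.34 for Nlrc5, -0.05 to 0.18 for Psmb6, -0.16 to 0.08 for Psmb7, -0.01 to 0.16 for Psme1 and -0.10 to 0.31 for Irf7. LPS+Pilo minus Control ran from -0.11 to 0.06 for Tap2, -0.17 to 0.22 for Tapbp, -0.19 to 0.18 for Psmb9, -0.06 to 0.20 for Psmb6 and -0.02 to 0.17 for Psme1. For the log2 ratio of Psmb8 to Psmb5 the ranges were -0.15 to 0.07 (LPS minus Control), -0.06 to 0.09 (LPS+Pilo minus LPS) and -0.14 to 0.09 (LPS+Pilo minus Control). For Psmb10 to Psmb7 they were -0.25 to 0.07, -0.05 to 0.26 and -0.10 to 0.14, and for Psmb9 to Psmb6 -0.40 to 0.20 (LPS+Pilo minus Control). The alternatives for genes outside the 10 were chosen after seeing the data. Fits with fewer libraries have fewer degrees of freedom; other causes were not tested. Depth is unknown, and 3 libraries per group limit the precision.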

Other observations

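Of the 10 genes of the MHC class II list 6 were below the filter. The class II chain genes H2-Aa and H2-Ab1 and the peptide editor gene H2-Ob were listed at 0 in all 9 libraries, H2-Eb1 reached at most 0.09 TPM, and Ciita, the class II transactivator gene, at most 0.01 TPM. Cd74, which encodes the class II invariant chain and a receptor for the cytokine MIF, was abundant all the same, at 231, 259 and 224 TPM in LPS+Pilo, 241, 183 and 151 TPM in LPS, and 141, 103 and 126 TPM in Control. All treated libraries were above all Control libraries. Cd74 rose in LPS+Pilo against Control (0.95 ± 0.17, limma adjusted p = 0.00709; 0.00193 to 0.0358 over the alternatives), and LPS minus Control was 0.62 ± 0.17 (adjusted p = 0.0587; 0.0198 to 0.166 over the alternatives). Of the 4 tested genes of this list, Cd74 was the only one called in any comparison.

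The genes whose log2(TPM + 1) followed B2m most closely over the 9 libraries were Fra10ac1 (Pearson correlation 0.984), Arhgef3 (0.980) and the DNA repair gene Rad52 (0.978). Among those close to H2-D1 were Dgat2 (0.970), an enzyme gene of triglyceride synthesis, and Kctd13 (0.963). All were picked as the highest of the correlations over libraries that share the 3 group means, so the values describe only the likeness of the patterns.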
